A study of Rattus norvegicus with 6 samples.

Results

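The collagen genes of cells labelled PC12 are described here, in control cells and in cells overexpressing PCBP1. PCBP1 is an RNA-binding protein that attaches to cytosine-rich stretches of RNA. The members were the protein-coding genes of the count table whose symbol is Col, a number, the letter a and a number, which gave 39 of 20609 genes. They comprised 10 fibrillar collagen genes, 5 basement-membrane (type IV) genes and 24 others. No member had the symbol Col1a2, Col4a3, Col6a3, Col15a1 or Col25a1, so sums and shares leave these chains out. PC12 is a rat pheochromocytoma line, derived from a tumour of adrenal chromaffin cells. Poly-A RNA was sequenced from 3 libraries of cells given a control plasmid (Ctrl) and from 3 libraries of cells given a PCBP1 overexpression plasmid (PCBP1-OE), all in the same line and with no other treatment named. The study's methods describe an EGFP-tagged PCBP1 construct delivered with a lipid reagent, whereas its introduction describes stable overexpression. The contents of the control plasmid were not given. A harvest time after transfection was given for RT-qPCR, but none was given for RNA sequencing. The study's text calls the replicates biological, but neither it nor the labels say that the libraries came from separate cultures, so the p-values measure the spread between these libraries.

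Collagens are the main structural proteins of the extracellular matrix. Their alpha chains are modified and folded into a helix in the endoplasmic reticulum, secreted, trimmed and cross-linked outside the cell, where fibrillar collagens build load-bearing fibrils, type IV collagen builds the sheet of basement membranes and type VI collagen builds beaded filaments close to the cell surface. In peripheral nerve, Schwann cells lay down a basement membrane and produce collagens of types IV, V and VI.

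The 6 libraries held between 19730209 and 22315623 counts, of which collagen genes took 0.316%, 0.324% and 0.322% in the control libraries and 0.316%, 0.305% and 0.274% in the PCBP1-OE libraries. A count of 0 in a library allows a level of up to 0.134 to 0.152 CPM (counts scaled to 1000000 per library), a limit that covers counting error only. The PCBP1 gene was not matched in the table and its overexpression was not checked here. The study itself reports higher PCBP1 mRNA by RT-qPCR and higher protein by western blot. Markers of the labelled cell type were low, and the label itself was not tested. Counts of Chga, Chgb, Dbh and Ddc did not exceed 9 in any library, Slc18a1 had 17 to 28 counts and Th, the rate-limiting enzyme of catecholamine synthesis, had 141 to 185. In contrast, the neural crest and glial factor Sox10 had 7160 to 9007 counts, S100b 4143 to 5339 and the mesenchymal receptor Pdgfra 3939 to 4941. Ctrl replicate 3 stood apart in its effect on the test: 1193 of 12624 genes passed an adjusted p of 0.05 with all 6 libraries and 2860 passed without it, while 48 passed without Ctrl replicate 2.

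A total of 24 collagen genes had enough counts for a test, and 15 did not. By edgeR's quasi-likelihood test, adjusted with the Benjamini-Hochberg method over every gene tested, Col6a2, Col5a3 and Col16a1 fell in PCBP1-OE cells, with log2 fold changes of −0.26, −0.34 and −0.32. No collagen gene rose by this test: 0 passed in that direction at an adjusted p of 0.05, while 1 was higher and 6 were lower at an unadjusted p under 0.05, and 0 were called higher by DESeq2, limma-voom or edgeR's exact test. The 3 called genes were 12.5% of those tested, against 9.45% of all genes called in either direction, 4.45% called higher and 5.00% called lower. None passed the 2-fold criterion as well, which 0.190% of all genes tested did. Control and PCBP1-OE libraries did not overlap for 7 of the 24 genes, or 29.2%, against 30.6% of all genes. Of these, 6 were lower in every PCBP1-OE library and 1 was higher, where the background shares were 16.5% and 14.1%. The median log2 fold change of the tested collagens was −0.010, beside 0.0029 over all genes, and the values ran from −0.52 (Col7a1) to 0.79 (Col11a1). Counted in either direction, the shares of called and of non-overlapping collagens were thus near those of the whole table. All 3 called collagens were lower, beside 5.00% of all genes called lower. Over all genes 47.1% of calls were higher in PCBP1-OE cells, and this share was 60.5% under upper-quartile scaling, where the same 3 collagens were called.

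**Figure D1:**
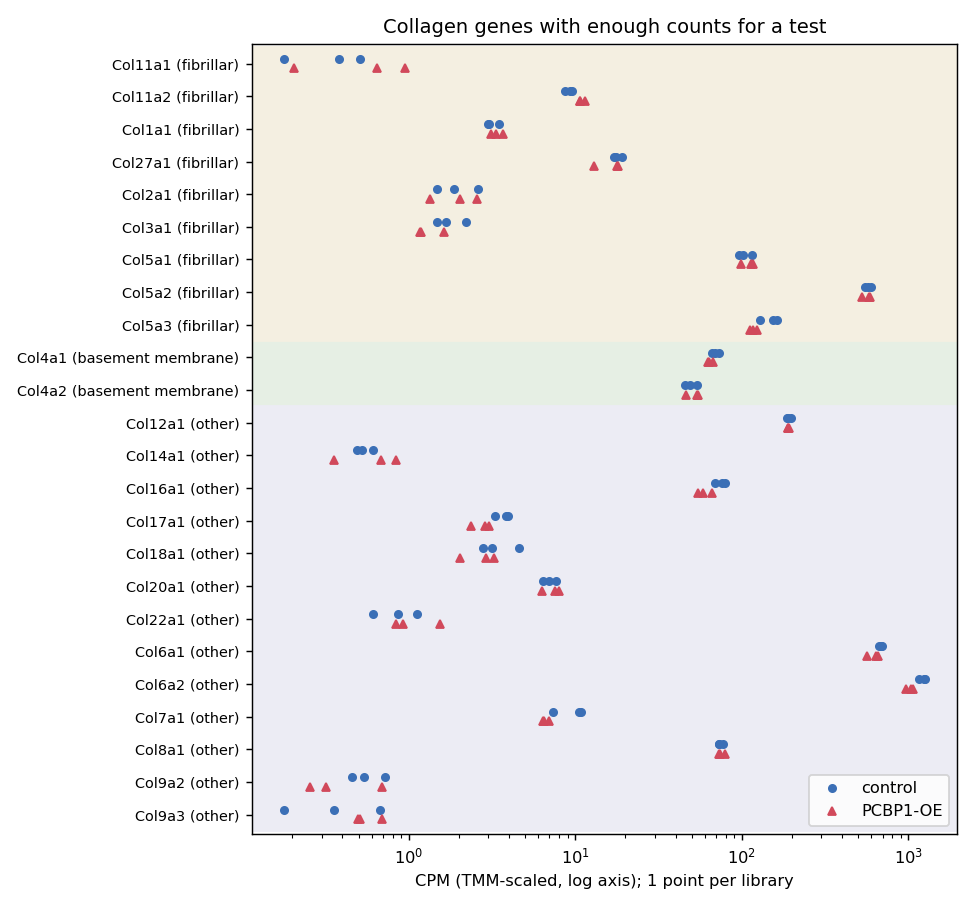
CPM of the 24 collagen genes with enough counts for a test, on a log axis, with 1 point for each library (circles, control; triangles, PCBP1-OE) and shading by fibrillar, basement-membrane and other collagens. Col6a2 lay highest, at 1159 to 1266 CPM in control and 972.8 to 1063 CPM in PCBP1-OE libraries, and 7 genes had groups that did not overlap.

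Reads of 3 genes made up most of the collagen signal. Col6a2, Col6a1 and Col5a2 together held 76.2% of collagen CPM in control cells and 75.2% in PCBP1-OE cells. CPM counts reads and was not divided by transcript length, so the order of genes by CPM is an order of reads and not of transcripts. The bulk measurement cannot tell fewer cells with a transcript from less of it per cell.

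Col6a2 (ENSRNOG00000001254, chromosome 20) encodes the alpha-2 chain of type VI collagen. Its level was 1249, 1266 and 1159 CPM in the control libraries and 1063, 1042 and 972.8 CPM in the PCBP1-OE libraries, so every PCBP1-OE library lay below every control library. The mean fell from 1225 ± 57.6 to 1026 ± 47.3 CPM (SD, n = 3), a log2 fold change of −0.26 ± 0.050 (SE, 95% interval −0.36 to −0.15), and the adjusted p of edgeR's quasi-likelihood test was 0.0131. The call was lost without Ctrl replicate 2 (adjusted p = 0.0785) and without PCBP1-OE replicate 2 (adjusted p = 0.0577), and over all 14 alternatives the adjusted p ran from 1.6e-07 to 0.102.

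Col6a1 (ENSRNOG00000001249, chromosome 20) encodes the alpha-1 chain, which assembles with the alpha-2 chain, and lies next to Col6a2 with 0 annotated protein-coding genes between them. Its level was 671.5, 685.3 and 693.4 CPM in control libraries and 656.4, 638.9 and 565.8 CPM in PCBP1-OE libraries. These groups did not overlap either, but the distance between the lowest control and the highest PCBP1-OE library was small beside the spread of the latter. The log2 fold change was −0.14 ± 0.054 (SE, 95% interval −0.26 to −0.02) and did not pass in edgeR's quasi-likelihood test (adjusted p = 0.110). The ratio of Col6a2 to Col6a1 counts was 1.86, 1.85 and 1.67 in control libraries and 1.62, 1.63 and 1.72 in PCBP1-OE libraries, and the groups overlapped. Summed over the type VI genes of the table, the level was 1921, 1952 and 1853 CPM in control and 1720, 1681 and 1539 CPM in PCBP1-OE libraries. Type VI genes held 58.6% ± 0.726 of collagen CPM in control cells and 56.0% ± 0.252 in PCBP1-OE cells (SD, n = 3), with no overlap between the groups. Shares are parts of the same total, so others rose. The fibrillar share was 26.0% to 27.2% in control and 27.95% to 28.3% in PCBP1-OE libraries. That of the FACIT (fibril-surface) collagens was 8.25% to 8.63% and 8.67% to 9.22%. Neither overlapped. The other 3 type VI members, Col6a4, Col6a5 and Col6a6, had 0 to 7 counts per library and were not tested. Col6a3 was not among the members, so the type VI sum and share leave it out.

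**Figure D2:**
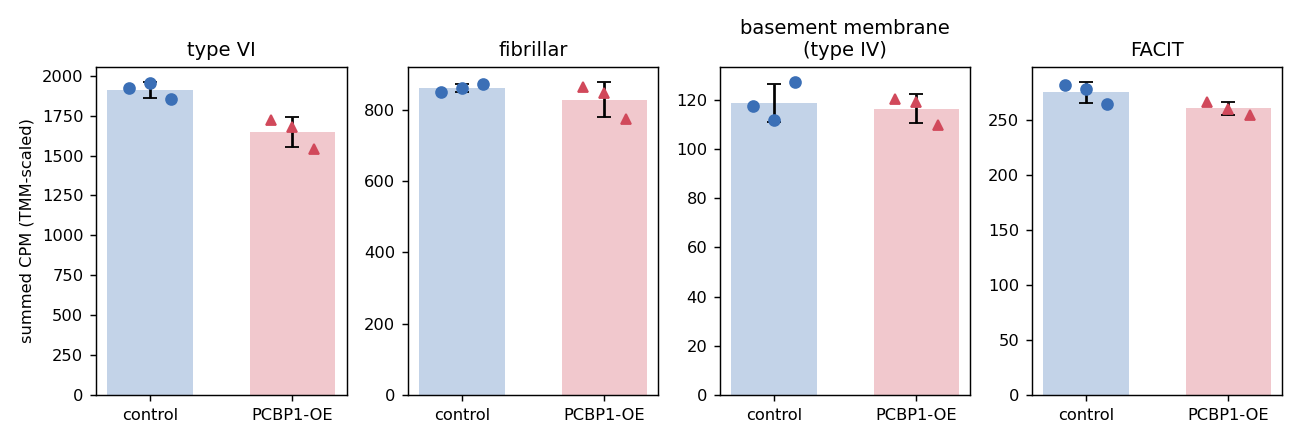
Summed CPM of the type VI, fibrillar, type IV and FACIT collagen genes in each library (points), with bars for the mean and error bars for the SD of 3 libraries, on axes that start at 0. Type VI sums did not overlap between groups (1853 to 1952 CPM in control, 1539 to 1720 CPM in PCBP1-OE), whereas the sums of the other classes shown did.

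Among the fibrillar collagens, 9 of 10 genes were tested and 1, Col5a3, was called. Their median log2 fold change was 0.0058, beside 0.0029 over all genes. Type V collagen, which is built into collagen fibrils and limits their width, gave the most reads of this class. Col5a3 (ENSRNOG00000020525, chromosome 8), its alpha-3 chain, was at 163.9, 153.8 and 129.2 CPM in control libraries and at 123.5, 117.3 and 111.6 CPM in PCBP1-OE libraries. The control libraries were all higher, with Ctrl replicate 3 closest to the PCBP1-OE group. The mean fell from 149 ± 17.8 to 117 ± 5.94 CPM (SD, n = 3), a log2 fold change of −0.34 ± 0.073 (SE, 95% interval −0.50 to −0.18) with an adjusted p of 0.0179 in edgeR's quasi-likelihood test. This call held without Ctrl replicate 3 (adjusted p = 1.1e-04). It was lost without Ctrl replicate 1 (0.0988) or 2 (0.127) and without PCBP1-OE replicate 1 (0.0633), 2 (0.0739) or 3 (0.0677), each an adjusted p of the same test.

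The other type V chains did not pass. Col5a1 (ENSRNOG00000008749), the alpha-1 chain, was at 96.54, 101.3 and 114.8 CPM in control and at 116.7, 114.3 and 99.4 CPM in PCBP1-OE libraries, and the groups overlapped. Its log2 fold change was 0.08 ± 0.070 (SE, 95% interval −0.07 to 0.23, edgeR quasi-likelihood adjusted p = 0.495). Col5a2 (ENSRNOG00000003736), the alpha-2 chain, was at 552.7, 572.0 and 594.9 CPM in control and at 586.3, 580.2 and 530.5 CPM in PCBP1-OE libraries, which also overlapped. Its log2 fold change was −0.02 ± 0.050 (SE, 95% interval −0.13 to 0.09, edgeR quasi-likelihood adjusted p = 0.838). Within libraries, the ratio of Col5a3 to Col5a2 counts was 0.296, 0.269 and 0.217 in control and 0.211, 0.202 and 0.210 in PCBP1-OE libraries, without overlap. The ratio of Col5a1 to Col5a2 counts was 0.175, 0.177 and 0.193 in control and 0.199, 0.197 and 0.187 in PCBP1-OE libraries, and overlapped. No test was made on these ratios.

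The stretch upstream of Col5a3 is printed because this gene, of the fibrillar class, was the member called. It covers bases 190 to 91 before the annotated start in RefSeq, on the minus strand at chr8:27626039-27626138 of GRCr8, and overlaps no annotated gene. Capitals mark the CCAAT box (CCAAT) and the GC box (GGGCGG, read here as its reverse complement CCGCCC).
Col5a3: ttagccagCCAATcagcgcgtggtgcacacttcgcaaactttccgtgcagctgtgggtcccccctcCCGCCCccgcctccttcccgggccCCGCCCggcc
Both motifs were searched on both strands in the 250 bases before the start, for the 31 of 39 members with a RefSeq promoter entry. A GC box was found in 18 of the 31 (58.1%) and in 30.5% of all 33469 promoters. A CCAAT box was found in 10 of the 31 (32.3%) and in 34.0% of all promoters. Members were counted once per gene, with a match in any of its entries, whereas the background counted each promoter entry, so the units differ. These matches are a description of the letters and were not tied to the change of any gene.

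Col1a1 and Col3a1, of the major fibril collagens of connective tissue, gave few reads. Col1a2 was not among the members. Col1a1, a type I chain, was at 3.47, 3.02 and 2.99 CPM in control and at 3.36, 3.67 and 3.11 CPM in PCBP1-OE libraries. Col3a1, the type III chain, was at 2.19, 1.68 and 1.47 CPM in control and at 1.63, 1.19 and 1.17 CPM in PCBP1-OE libraries. Groups overlapped for both genes, and the edgeR quasi-likelihood adjusted p was 0.748 for Col1a1 and 0.330 for Col3a1. Col3a1 lies next to Col5a2 on chromosome 9, with 0 annotated protein-coding genes between them, and the neighbours differed by far in reads. Col2a1, the cartilage fibril chain, ranged from 1.34 to 2.60 CPM over the 6 libraries.

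Type XI collagen also belongs to the fibril core. Col11a2 (ENSRNOG00000000463) was at 8.72, 9.30 and 9.499 CPM in control libraries and at 11.4, 10.7 and 10.7 CPM in PCBP1-OE libraries. It was the single tested collagen with every PCBP1-OE library above every control library. Its log2 fold change was 0.25 ± 0.11 (SE, 95% interval 0.02 to 0.48) and did not pass after adjustment in edgeR's quasi-likelihood test (adjusted p = 0.142). Col11a1 was below 1 CPM in every library, and its log2 fold change of 0.79 had a 95% interval from −0.40 to 1.97. Col27a1 was at 17.0 to 19.1 CPM in control and at 13.02 to 17.99 CPM in PCBP1-OE libraries. Col24a1 had 0 or 1 counts per library and was not tested.

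Of the 5 type IV genes, 2 were tested and 0 were called in edgeR's quasi-likelihood test, with 0 also at an unadjusted p under 0.05 and 0 by DESeq2, limma-voom or edgeR's exact test. Their median log2 fold change was −0.020. Col4a1 (ENSRNOG00000016281), the alpha-1 chain of the common basement-membrane network, was at 68.6, 66.5 and 73.1 CPM in control and at 66.9, 63.9 and 63.1 CPM in PCBP1-OE libraries. The groups overlapped, and the log2 fold change was −0.10 ± 0.052 (SE, 95% interval −0.22 to 0.01, edgeR quasi-likelihood adjusted p = 0.212). Col4a2 (ENSRNOG00000023972), the alpha-2 chain, was at 48.6, 45.4 and 54.0 CPM in control and at 53.5, 54.8 and 46.3 CPM in PCBP1-OE libraries. These groups overlapped too, and the log2 fold change was 0.06 ± 0.076 (SE, 95% interval −0.10 to 0.23, edgeR quasi-likelihood adjusted p = 0.624). Both intervals exclude a 2-fold change in either direction. The ratio of Col4a1 to Col4a2 counts was 1.41, 1.47 and 1.36 in control and 1.25, 1.17 and 1.36 in PCBP1-OE libraries, and the groups overlapped. Col4a4, Col4a5 and Col4a6, which build tissue-restricted networks, had 0 to 5 counts per library.

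Col4a1 and Col4a2 are transcribed head to head from a shared stretch of chromosome 16, which is printed because both chains come from it. The 76 bases between the annotated RefSeq starts lie at chr16:84885521-84885596 of GRCr8 and are written on the plus strand, with the GC box in capitals.
Col4a2 to Col4a1: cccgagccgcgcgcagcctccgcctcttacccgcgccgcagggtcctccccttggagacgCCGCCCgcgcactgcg

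The FACIT collagens, which sit on the surface of fibrils, had 7 of 9 genes tested and 1 called. Col16a1 (ENSRNOG00000031475, chromosome 5) was at 76.4, 78.8 and 68.7 CPM in control libraries and at 65.9, 58.5 and 54.5 CPM in PCBP1-OE libraries, and all PCBP1-OE libraries were lower. The mean fell from 74.6 ± 5.29 to 59.6 ± 5.81 CPM (SD, n = 3), a log2 fold change of −0.32 ± 0.071 (SE, 95% interval −0.47 to −0.17) with an adjusted p of 0.0197 in edgeR's quasi-likelihood test. The call held without Ctrl replicate 3 (adjusted p = 0.0011) and without PCBP1-OE replicate 1 (0.0302). It was lost without Ctrl replicate 1 (0.0796) or 2 (0.123) and without PCBP1-OE replicate 2 (0.0839) or 3 (0.0603), each an adjusted p of the same test.

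Col12a1 (ENSRNOG00000058470), the FACIT gene with the most reads, was at 196.9, 189.1 and 186.2 CPM in control and at 189.6, 189.9 and 191.9 CPM in PCBP1-OE libraries. The groups overlapped and the log2 fold change of −0.00 had a 95% interval from −0.09 to 0.09 (edgeR quasi-likelihood adjusted p = 0.982). Col20a1 was at 6.28 to 7.98 CPM over the 6 libraries. Col14a1, Col22a1, Col9a2 and Col9a3 had 4 to 34 counts per library, and their intervals were wide, for example −0.53 to 1.53 on the log2 scale for Col9a3. Col9a1 and Col19a1 had 0 to 6 counts and were not tested.

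Col7a1 (ENSRNOG00000020579, chromosome 8) encodes the anchoring-fibril collagen that ties epithelial basement membranes to the tissue beneath. It was at 10.8, 10.5 and 7.31 CPM in control libraries and at 6.53, 6.99 and 6.38 CPM in PCBP1-OE libraries. All PCBP1-OE libraries were lower, with Ctrl replicate 3 closest to them. The log2 fold change was −0.52 ± 0.15 (SE, 95% interval −0.85 to −0.19) and the adjusted p of edgeR's quasi-likelihood test was 0.0501, just outside the threshold. It passed in 4 of 14 alternatives: without Ctrl replicate 3 (0.00186), in DESeq2 (0.0295), in edgeR's exact test (0.0266) and with no filter on low counts (0.00609), each an adjusted p. It did not pass in limma-voom (0.0702), under RLE (0.0521) or upper-quartile scaling (0.0578), or with a 1 CPM filter (0.0505). Nor did it pass with a replicate block (0.136) or without any other library (0.121 to 0.214).

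Col17a1, a transmembrane collagen of hemidesmosomes, was at 3.31, 3.83 and 3.92 CPM in control and at 2.36, 3.02 and 2.86 CPM in PCBP1-OE libraries. These groups did not overlap, but the log2 fold change of −0.43 ± 0.18 (SE) did not pass in edgeR's quasi-likelihood test (adjusted p = 0.138). Col8a1 (ENSRNOG00000039668), a network-forming collagen of vessel walls and the cornea, was at 76.9, 72.9 and 73.4 CPM in control and at 79.0, 74.4 and 73.0 CPM in PCBP1-OE libraries. Its log2 fold change was 0.02 with a 95% interval from −0.08 to 0.13. Col18a1, the source of endostatin, was at 2.81 to 4.59 CPM in control and at 2.04 to 3.27 CPM in PCBP1-OE libraries. Col8a2, Col10a1, Col13a1, Col23a1, Col26a1 and Col28a1 had 0 to 12 counts per library and were not tested.

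**Figure D3:**
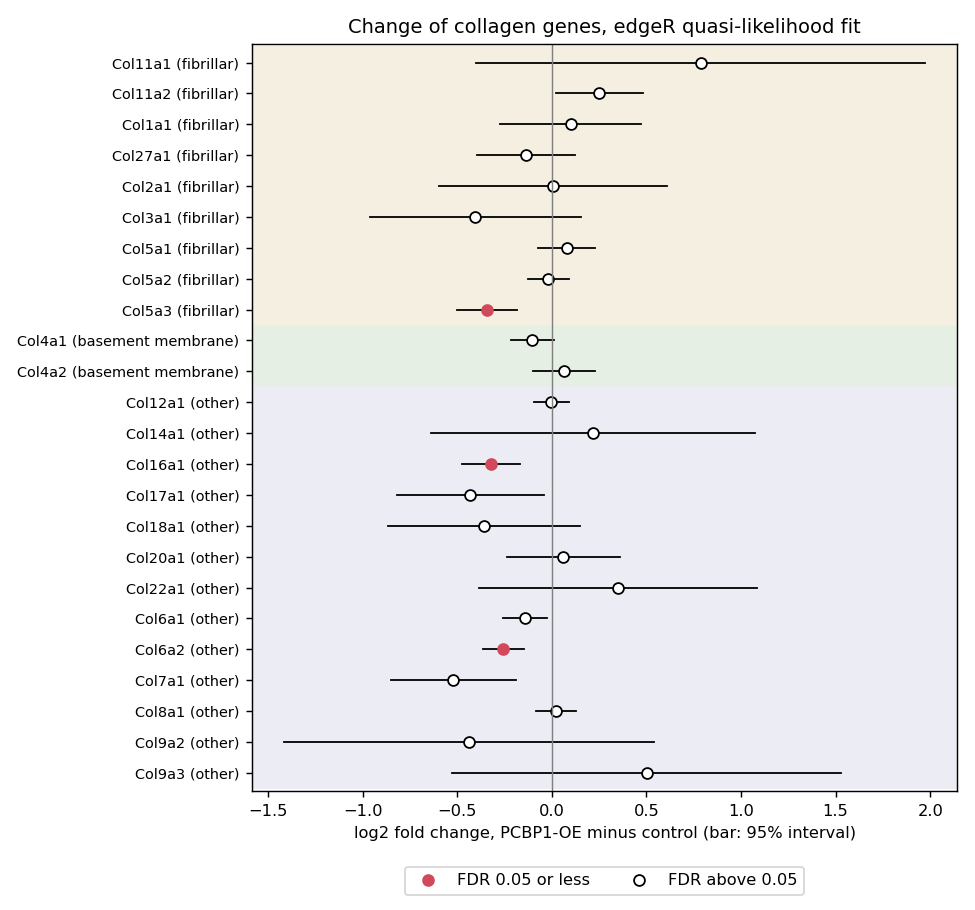
Log2 fold change (PCBP1-OE minus control) of the 24 tested collagen genes with 95% intervals of the edgeR quasi-likelihood fit, where filled points have an adjusted p of 0.05 or less. Col6a2 (−0.26), Col5a3 (−0.34) and Col16a1 (−0.32) were filled, and wide intervals belonged to genes with few counts such as Col11a1.

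**Figure D4:**
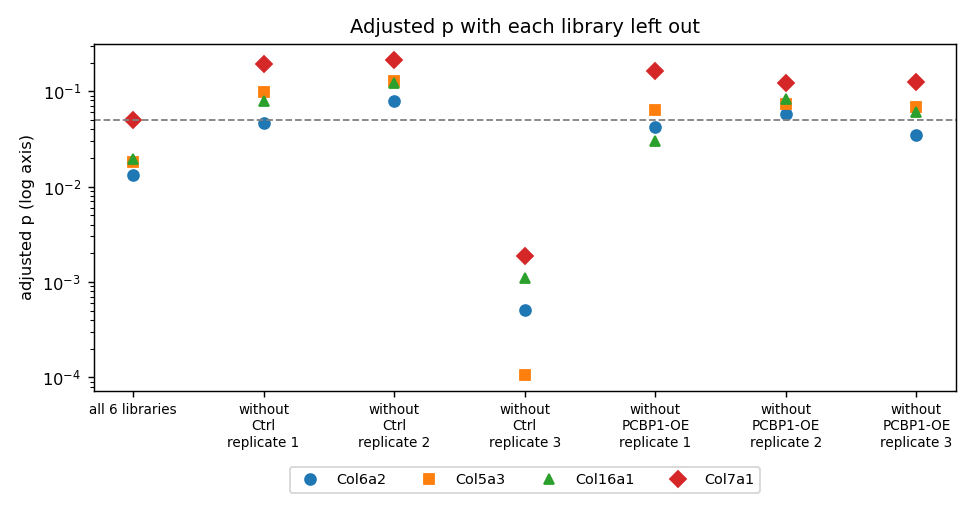
Adjusted p of edgeR's quasi-likelihood test on a log axis for Col6a2, Col5a3, Col16a1 and Col7a1, with all 6 libraries and with each library left out in turn, where the dashed line is 0.05. All 4 genes were under the line without Ctrl replicate 3, and none was under it without Ctrl replicate 2.

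Some marker genes of other cell types were also lower in PCBP1-OE cells, and others were not. Of the neural crest and glial markers, Sox10 was at 389.4 to 408.0 CPM in control and at 361.9 to 374.9 CPM in PCBP1-OE libraries, and S100b at 218.3 to 243.0 CPM and 211.5 to 219.3 CPM. The summed fibroblast and mesenchymal markers were at 251.9 to 253.1 CPM in control and at 227.9 to 237.5 CPM in PCBP1-OE libraries, with Dcn, Fap and Twist2 at 0 to 5 counts. Pdgfra gave most of this sum, at a mean of 223.0 CPM in control and 202.9 CPM in PCBP1-OE libraries. The other tested markers of this list, Pdgfrb and Postn, had positive log2 fold changes (0.06 and 0.39). The median of the 3 tested was 0.061. Sox10 and the mesenchymal sum were lower in every PCBP1-OE library and the S100b groups overlapped, although 0 of the listed marker genes passed in edgeR's quasi-likelihood test. Sox10, S100b and Pdgfra had an unadjusted p under 0.05, with log2 fold changes of −0.12, −0.12 and −0.14, and Pdgfra passed in DESeq2 (adjusted p = 0.0487) but no marker did in limma-voom or edgeR's exact test. The part of these markers in the collagen differences was not tested. Summed chromaffin markers overlapped between groups, at 8.47 to 9.87 CPM in control and at 8.62 to 9.90 CPM in PCBP1-OE libraries. Endothelial markers summed to 4.07 to 5.62 CPM in control and 4.95 to 5.90 CPM in PCBP1-OE libraries, and leukocyte markers to 3.77 to 3.98 CPM and 2.86 to 3.47 CPM.

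Genes that make, secrete and cross-link collagen were examined next. Of 34 tested, 6 fell (P3h3, P3h4, Ppib, Fkbp10, Pcolce and Loxl3) in edgeR's quasi-likelihood test, and 0 rose, with 2 higher and 10 lower at an unadjusted p under 0.05 and 0 called higher by DESeq2, limma-voom or edgeR's exact test. The 6 were 17.6% of those tested, against 5.00% of all genes called lower and 9.45% called in either direction. Their median log2 fold change was −0.082, beside 0.0029 over all genes. The count of 6 depended on single libraries, since 0 fell when any of Ctrl replicates 1 and 2 or PCBP1-OE replicates 1 and 2 was left out, 1 fell without PCBP1-OE replicate 3, and 8 fell and 4 rose without Ctrl replicate 3.

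Folding and modification held 4 of the 6 called genes among 17 tested, with a median log2 fold change of −0.11. The called share was 23.5%, against 9.45% of all genes called in either direction and 5.00% called lower. P3h3, a member of the prolyl 3-hydroxylase family, was at 27.3, 28.1 and 28.5 CPM in control and at 22.8, 23.1 and 21.7 CPM in PCBP1-OE libraries. It fell by 0.31 ± 0.072 on the log2 scale (SE, edgeR quasi-likelihood adjusted p = 0.0221). Ppib, the prolyl isomerase cyclophilin B, was at 508.1, 508.7 and 459.9 CPM in control and at 422.9, 413.6 and 440.1 CPM in PCBP1-OE libraries, and fell by 0.21 ± 0.050 (adjusted p = 0.0244). P3h4, which acts with P3h3 in the hydroxylation of collagen lysines, fell by 0.20 ± 0.049 (adjusted p = 0.0263). Fkbp10, a collagen chaperone and prolyl isomerase, fell by 0.18 ± 0.047 (adjusted p = 0.0354). For all 4 genes every PCBP1-OE library lay below every control library, which adds no separate support because the same libraries gave the calls. Of the 17 tested, 8 were lower in every PCBP1-OE library and 0 were higher in every one, where the background shares were 16.5% and 14.1%.

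The prolyl 4-hydroxylases, which stabilise the helix, did not pass. P4ha1 had a log2 fold change of 0.14 ± 0.055 (SE, edgeR quasi-likelihood adjusted p = 0.129), P4ha2 of −0.16 ± 0.049 (0.0565) and their shared subunit P4hb of −0.08 ± 0.040 (0.191). The lysyl hydroxylases Plod1, Plod2 and Plod3 had log2 fold changes of −0.02, 0.01 and −0.12 with adjusted p of 0.804, 0.954 and 0.0886. Serpinh1, the collagen-specific chaperone HSP47, had 12, 22 and 17 counts in control and 20, 20 and 27 counts in PCBP1-OE libraries, few beside any of the called collagens. Of 10 secretion genes tested, 0 were called in edgeR's quasi-likelihood test, with 1 higher and 1 lower at an unadjusted p under 0.05 and 0 called by DESeq2, limma-voom or edgeR's exact test.

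Outside the cell, 2 of 7 tested genes of propeptide cleavage and cross-linking fell. They were 28.6% of those tested, against 9.45% of all genes called in either direction and 5.00% called lower. Pcolce, which enhances removal of the C-terminal propeptide, was at 474.8, 473.1 and 442.5 CPM in control and at 401.7, 412.2 and 414.1 CPM in PCBP1-OE libraries. It fell by 0.18 ± 0.044 on the log2 scale (SE, edgeR quasi-likelihood adjusted p = 0.0282). Loxl3, a lysyl oxidase family member, was at 1181, 1192 and 1209 CPM in control and at 1102, 1076 and 1040 CPM in PCBP1-OE libraries. It fell by 0.15 ± 0.042 (adjusted p = 0.0394). Lox itself had 0 or 1 counts per library and was not tested. Pxdn, the peroxidase that cross-links type IV collagen, had a log2 fold change of 0.05 ± 0.076 (adjusted p = 0.713).

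Among 9 tested genes that bind collagen, Sparc and Bgn fell. They were 22.2% of those tested, against 9.45% of all genes called in either direction and 5.00% called lower. Sparc, a matricellular protein and collagen chaperone, was at 435.9, 441.6 and 422.0 CPM in control and at 378.8, 363.3 and 377.1 CPM in PCBP1-OE libraries. It fell by 0.22 ± 0.042 on the log2 scale (SE, edgeR quasi-likelihood adjusted p = 0.0131). Bgn, the small proteoglycan biglycan, was at 1226, 1263 and 1263 CPM in control and at 1093, 1168 and 1126 CPM in PCBP1-OE libraries. It fell by 0.15 ± 0.043 (adjusted p = 0.0485). The groups did not overlap for either gene, which adds no separate support because the same libraries gave both calls. Of the 9 tested, 4 were lower in every PCBP1-OE library and 1 was higher, where the background shares were 16.5% and 14.1%. With 1 library left out, Sparc passed without Ctrl replicate 3 (adjusted p = 0.00144) or PCBP1-OE replicate 3 (0.0356), and its adjusted p ran from 0.0513 to 0.0927 without any other library. Bgn passed without Ctrl replicate 3 (0.0285) and ran from 0.0717 to 0.163 without any other. Its call was also lost under upper-quartile scaling (adjusted p = 0.0734), with the 1 CPM filter (0.0501) and in edgeR's exact test (0.0527). The collagen receptors Ddr1 and Ddr2 had log2 fold changes of −0.09 and 0.09 with adjusted p of 0.308 and 0.524.

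**Figure D5:**
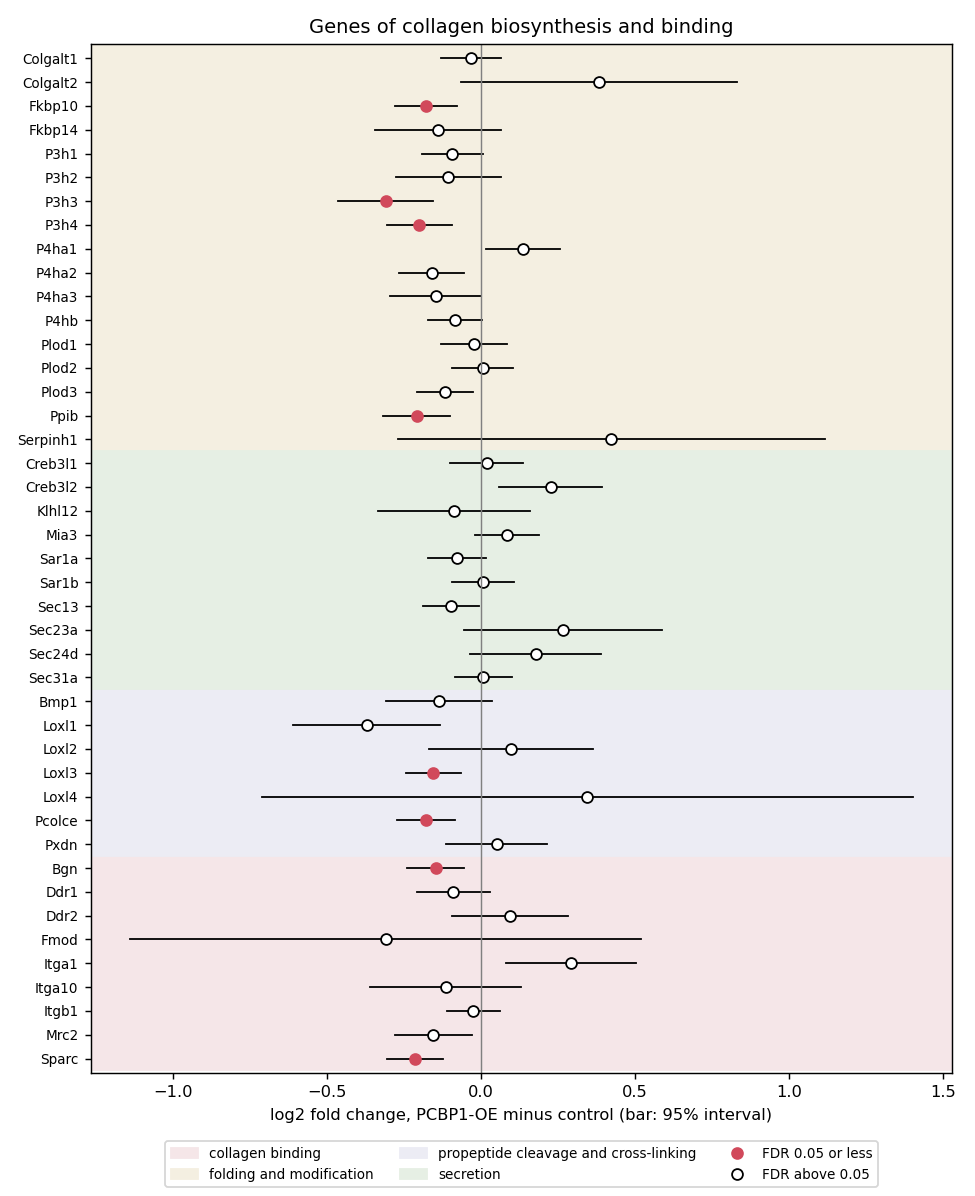
Log2 fold change (PCBP1-OE minus control) with 95% intervals of the edgeR quasi-likelihood fit for the tested genes of collagen folding and modification, secretion, propeptide cleavage and cross-linking, and collagen binding. Filled points have an adjusted p of 0.05 or less, and all of them lay below 0, from −0.31 (P3h3) to −0.15 (Bgn).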

How the data were processed

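The authors deposited 1 table of whole-number counts per gene for the 6 poly-A libraries. The labels name bcl2fastq, TopHat2 and edgeR, and the build GRCh38, whereas the methods name the rat assembly Rnor_6.0 and the gene identifiers are rat. The labels and the methods name different strand-specific kits. How reads were counted, with which use of strand and which annotation, was not given in the sources used here. Counts were fitted over the whole table with edgeR 4.0.16 in R 4.3.3 (TMM scaling, filterByExpr with a minimum count of 10 and total of 15, glmQLFit and glmQLFTest, Benjamini-Hochberg adjustment), which tested 12624 genes and left out 7985. The scripts were tested on simulated data. Genes were called at an adjusted p of 0.05. CPM were TMM-scaled, groups followed the labels, and group medians and ratios carry no test. The alternatives covered scaling (RLE, upper-quartile), the filter (none, or 1 CPM in 3 libraries), DESeq2 1.42.0, limma-voom (limma 3.58.1), edgeR's exact test, a replicate block and leaving out each library. An exact permutation test of 3 against 3 libraries cannot go below p = 0.1 (two-sided). All members were accounted for, and other lists were named where called, with a fixed set of enzymes and receptors. Members and lists were chosen with earlier results of these data known. Sequences came from RefSeq (GRCr8), whose coordinates were not mixed with those of the counts. Some marker genes are not reported here.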

Additional observations from a re-analysis of the deposited data

How the results depend on the processing

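Of 14 alternatives, the count of collagens called lower (3) became 5 with no filter, 0 with the replicate block and 0 to 4 when 1 library was left out. The count of biosynthesis genes called higher (0) became 2 with no filter and ran from 0 to 4 with 1 library left out. The count called lower (6) became 0 with the replicate block and ran from 0 to 8 with 1 library left out. Over the whole table, the number of genes called ran from 48 to 2860 with 1 library left out, against 1193 with all 6. The median log2 fold change of the tested collagens moved from −0.010 to −0.10 with the 1 CPM filter, and that of the other collagens from −0.14 to 0.011 with no filter and −0.25 with the 1 CPM filter, as these settings change which genes are tested. Replicate numbers are shared by the groups, but deviations of same-numbered libraries correlated at −0.078, −0.051 and −0.043, so the numbers were not taken to pair libraries. Under that block 14 genes of the whole table were called higher and 2 lower. Adjusted p under the block was 0.102 for Col6a2, 0.0858 for Col5a3, 0.0891 for Col16a1, 0.116 for Sparc and 0.188 for Bgn. Over the alternatives, 17 of 24 tested collagens kept their sign and 7 changed it at least once, none of them a called gene. Col7a1 and Col6a1 were called in at least 1 alternative, Col6a1 with no filter (adjusted p = 0.0232). Depth limits the 15 untested members, with at most 12 counts in any library.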
